A study of Homo sapiens with 2 samples.

Results

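The miR-25 family of miRNAs, with its miR-92a and miR-92b branches, was followed on 1-colour miRNA arrays of exosome RNA from the established human liver cancer line HuH-7. Its 10 members, of 2565 miRNA probes in all, were found by their names in the scanner output. Of these, 5 arms carry the family seed (hsa-miR-92a-3p, hsa-miR-92b-3p, hsa-miR-25-3p, hsa-miR-363-3p and hsa-miR-32-5p). The other 5 come from the opposite side of the hairpins (hsa-miR-92a-1-5p, hsa-miR-92a-2-5p, hsa-miR-92b-5p, hsa-miR-25-5p and hsa-miR-363-5p). The prefix hsa, for human, is left out from here on. Exosomes, small vesicles that cells release, came from the cultures labelled HuH-7-M and HuH-7-P. The labels do not spell out M and P, and the series title speaks of liver cancer lines with high intrahepatic metastasis. The labels give HuH-7 as the cell line of both cultures, grown with 10% fetal bovine serum and moved to advanced DMEM before the vesicles were pelleted by ultracentrifugation. The extraction protocol in the labels speaks of RNA from cells, although both samples are named as exosomes. Each group was 1 culture on 1 array, so the differences have no replicate check and none was tested.

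miRNAs are cut from hairpin precursors that leave 2 strands. One strand, the guide, is usually loaded into Argonaute and pairs with target mRNAs through its seed, bases 2 to 8, while the other, the passenger, is usually degraded. The family seed is shared by hairpins of several loci. miR-92a comes from the polycistron of MIR17HG, a cluster known as an oncogene in lymphoma and raised in many carcinomas, and from its paralog on the X chromosome. miR-25 comes from the paralogous cluster with miR-106b and miR-93. Known targets of the seed include BCL2L11, which encodes the pro-apoptotic protein BIM, and miR-92a is also studied for its action in endothelial cells through KLF2 and ITGA5.

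The sequences below show what the members share and what keeps them apart. All 10 matched RefSeq entries on GRCh38.p14 and are written 5′ to 3′ with the seed in capitals, the seed-sharing arms first.
miR-92a-3p: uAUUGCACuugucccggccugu
miR-92b-3p: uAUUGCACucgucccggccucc
miR-25-3p: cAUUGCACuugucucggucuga
miR-363-3p: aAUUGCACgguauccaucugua
miR-32-5p: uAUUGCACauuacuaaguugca
miR-92a-1-5p: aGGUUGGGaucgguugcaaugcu
miR-92a-2-5p: gGGUGGGGauuuguugcauuac
miR-92b-5p: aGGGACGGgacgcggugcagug
miR-25-5p: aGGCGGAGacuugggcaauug
miR-363-5p: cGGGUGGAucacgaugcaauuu

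The seed AUUGCAC was carried by 6 mature miRNAs of the RefSeq table, the 5 above and miR-367-3p, and all 6 have a probe on the array. The 5 opposite arms had 5 different seeds, and only that of miR-363-5p occurred in another entry, miR-6745. Outside the seed the guides fell into near copies and distant ones. With positions counted from 1 at the 5′ end, miR-92a-3p and miR-92b-3p were the same at 19 of 22 bases and differed by U10C, G21C and U22C. miR-92a-3p and miR-25-3p were the same at 18 of 22 bases and differed by U1C, C14U, C18U and U22A. miR-363-3p and miR-32-5p matched miR-92a-3p at 10 and 11 of 22 bases. How far the 3 near-identical guides, miR-92a-3p, miR-92b-3p and miR-25-3p, are separated by their probes was not tested, so their values are uncertain in that respect.

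The loci differ in their neighbours. The sequence of miR-92a-3p occurs on both chr13:91351361-91351382 (plus strand, MIR92A1) and chrX:134169544-134169565 (minus strand, MIR92A2), so its probe cannot tell the loci apart, whereas each opposite arm belongs to 1 of them. MIR92A1 lies within the lncRNA gene MIR17HG with 5 other miRNA hairpins within 10 kb. MIR92A2 and MIR363 lie together within MIR106AHG on the X chromosome. miR-25-3p, at chr7:100093571-100093592 on the minus strand, lies within the span of MCM7, which encodes a subunit of the replicative helicase. miR-92b-3p, at chr1:155195237-155195258 on the plus strand, lies within the antisense gene THBS3-AS1, and miR-32-5p, at chr9:109046272-109046293 on the minus strand, within TMEM245, and neither hairpin had another miRNA hairpin within 10 kb.

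Signal here is the spot median intensity of the Cy5 channel minus the mean of the BLANK spots of that array (58.7 on HuH-7-M, against 59.7 on HuH-7-P). The BLANK limit, 2 SD above that mean, lay at a signal of 2.44 on HuH-7-M, against 2.62 on HuH-7-P. The stricter limit drawn from 85 No Probe spots lay at 31.2 on HuH-7-M, against 27.2 on HuH-7-P. A member above the BLANK limit on both arrays is called measured. Of the 10 members 6 were measured, against 62.1% of all miRNA probes, and 4 were over the stricter limit on each array, against 30.8% of all probes. A further 2 members were above the BLANK limit on HuH-7-M only, as were 3.04% of all probes, and 2 were above it on neither array, as were 31.9%. Each array taken alone had 65.1% of all probes above its BLANK limit, with 8 members on the HuH-7-M array and 6 on the HuH-7-P array. Brightness of different probes was not read as relative abundance, because probes bind and label differently. The number of vesicles, the RNA in each and the amount of RNA labelled cannot be told apart on these arrays.

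**Figure D1:**
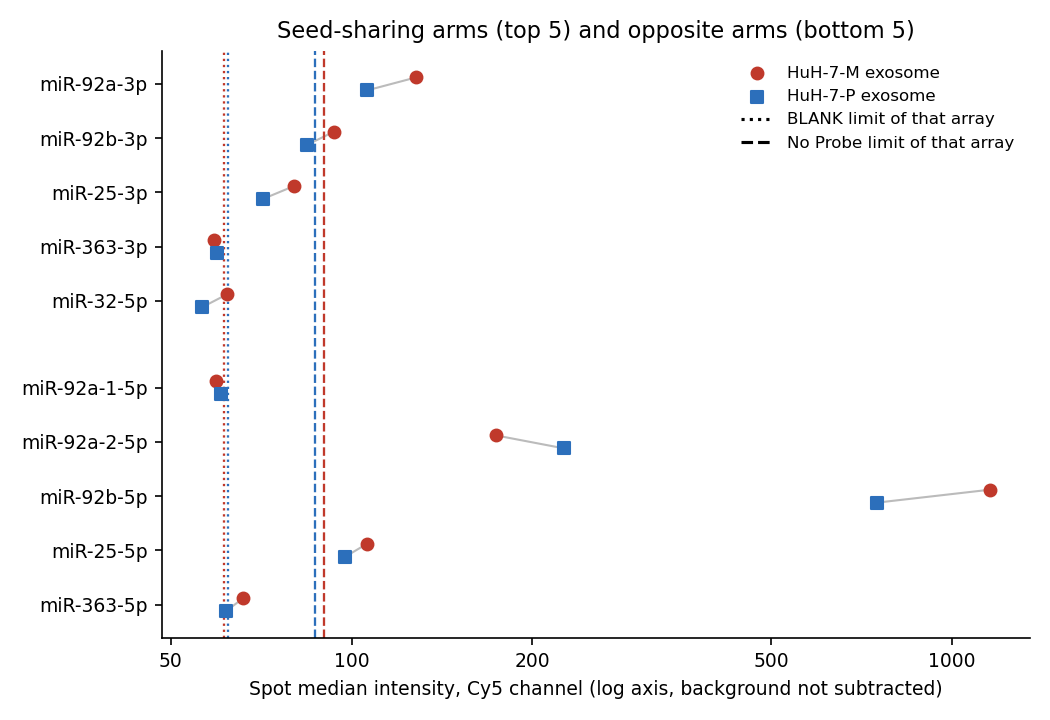
Spot median intensity of each member (log axis, background not subtracted) on the HuH-7-M array (circles, upper) and the HuH-7-P array (squares, lower), with the BLANK limits (dotted) and No Probe limits (dashed) of each array in its colour. miR-92b-5p lies far to the right at 1158 on HuH-7-M, against 749 on HuH-7-P, while miR-363-3p and miR-92a-1-5p lie left of both limits on both arrays.

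Among the seed-sharing arms, the 3 near-identical guides were above the BLANK level and brighter on HuH-7-M, and the 2 distant ones lay at or near the BLANK level. miR-92a-3p, the most studied guide of the family, had a signal of 68.9 on HuH-7-M, against 46.5 on HuH-7-P, a signal ratio of 1.48. On each array it passed the No Probe limit, which no other seed-sharing arm did on both. miR-92b-3p had a signal of 34.8 on the HuH-7-M array and 24.7 on the HuH-7-P array, a ratio of 1.41. On HuH-7-M it passed the No Probe limit, but not on HuH-7-P, where 71 of the 85 No Probe spots were dimmer than it. miR-25-3p had a signal of 21.6 on HuH-7-M, against 11.4 on HuH-7-P, a ratio of 1.89. It stayed within the No Probe spots, of which 41 were dimmer than it on HuH-7-M, against 4 on HuH-7-P. The ratio of miR-25-3p is the highest of the 6 measured members and rests on the smallest signals.

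miR-32-5p, which comes from a solitary hairpin, had a signal of 3.24 on the HuH-7-M array and -3.41 on the HuH-7-P array. It was brighter than 309 of the 320 BLANK spots on HuH-7-M and than 4 of them on HuH-7-P, so only the HuH-7-M value exceeded the limit. miR-363-3p, from the X-linked cluster, had a signal of 0.297 on HuH-7-M, against -0.135 on HuH-7-P, in the middle of the BLANK spots (189 of 320 were dimmer on HuH-7-M, against 149 on HuH-7-P). miR-367-3p, the remaining carrier of the seed and a miRNA of pluripotent stem cells, was below the BLANK mean on both arrays (-3.20 on HuH-7-M, against -6.03 on HuH-7-P), and miR-32-3p, the strand opposite miR-32-5p, also was (-2.12 on HuH-7-M, against -2.28 on HuH-7-P).

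The opposite arms held the brightest probe of the family and its only measured member that was dimmer on HuH-7-M. miR-92b-5p, the strand opposite miR-92b-3p, had a signal of 1099 on the HuH-7-M array and 689 on the HuH-7-P array, a ratio of 1.60. miR-25-5p, the strand opposite miR-25-3p, had a signal of 47.4 on HuH-7-M, against 37.8 on HuH-7-P, a ratio of 1.26. miR-92a-2-5p, the strand opposite the X-linked copy of miR-92a, had a signal of 115 on HuH-7-M, against 166 on HuH-7-P, a ratio of 0.696. These 3 of the 5 opposite arms exceeded the No Probe limits of the 2 arrays, against 1 of the 5 seed-sharing arms. Over the whole array 36.5% of the probes named 5p and 23.8% of those named 3p did. miR-363-5p had a signal of 7.27 on HuH-7-M, above all 320 BLANK spots, and 2.11 on HuH-7-P, where 284 BLANK spots were dimmer and the limit was not reached. miR-92a-1-5p, the strand opposite the chromosome 13 copy of miR-92a, had a signal of 0.764 on the HuH-7-M array and 0.869 on the HuH-7-P array, within the BLANK spots on both arrays. Of the strands opposite miR-92a, the X-linked one was measured and the chromosome 13 one was not above background. No locus can be read from miR-92a-3p itself.

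Differences between the cultures were set on a common scale by a normexp background correction on the BLANK spots with an offset of 50 and quantile normalization, with the log2 value of HuH-7-P taken from that of HuH-7-M. The offset pulls dim probes toward 0. In simulated arrays a true 2-fold change of bright probes read as less than 2-fold on this scale, rises more so than falls. Probes as dim as miR-92a-3p, miR-92b-3p, miR-25-3p and miR-25-5p were not changed there. On this scale none of the 6 measured members reached 2-fold in either direction. Of all 1593 measured miRNAs 34 did (2.13%), of which 7 were higher (0.439% of those measured) and 27 lower (1.69%) in HuH-7-M exosomes. The higher share of these calls, 20.6% here, was 42.2% with no scaling between arrays, 45.5% with the measured median as scale, 51.1% with the 75th percentile and 2.67% with the Spike Control spots. Higher in HuH-7-M exosomes were miR-92b-5p (0.47), miR-92a-3p (0.34), miR-25-3p (0.23), miR-92b-3p (0.20) and miR-25-5p (0.18), and lower was miR-92a-2-5p (-0.35). Thus 5 of 6 were above 0, as were 53.9% of all measured miRNAs. The 3 measured seed-sharing arms had a median of 0.23 and the 3 measured opposite arms one of 0.18, with 0.01 over all measured miRNAs. Over all 5 of each kind, measured or not, the medians were 0.20 and 0.13.

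The sizes stood close to the pooled spread of repeated control spots, which a few uneven controls raised. Spots of 1 control probe on 1 array had a pooled log2 SD of 0.21 over 15 repeated control probes, so that a difference of 2 single spots carries an SD of 0.30. miR-92b-5p, miR-92a-3p and miR-92a-2-5p exceeded this spread, which 16.2% of all measured miRNAs did, and miR-25-3p, miR-92b-3p and miR-25-5p did not. Over the 13 control probes with 8 spots alone the SD of a difference was 0.21, which miR-25-3p exceeded as well. The log2 SDs of single controls were uneven. Negative Control 1 had 0.447 on HuH-7-M, against 0.321 on HuH-7-P, and S-Probe7 had 0.182 on HuH-7-M, against 0.518 on HuH-7-P. QC-Probe had 0.345 on HuH-7-M, against 0.192 on HuH-7-P. Other dim controls varied far less. S-Probe22 had 0.0664 on HuH-7-M, against 0.0552 on HuH-7-P, and Negative Control 2 had 0.0343 on HuH-7-M, against 0.0502 on HuH-7-P. Which members exceed the spread therefore depends on the controls that are pooled. The pooled spread leaves out cultures, labelling and hybridisation. The control probes themselves differed between the arrays, 13 of 15 being brighter on HuH-7-M, with BLANK-subtracted log2 ratios from -0.49 to 1.49 and a median of 0.63. With the offset and before scaling between arrays, the controls' log2 ratios had a median of 0.12 and a lowest value of -0.06, with S-Probe27 at 0.94. S-Probe6, for example, a control whose target the files do not name, had a spot median of 122 ± 5.88 on HuH-7-M, against 82.6 ± 2.20 on HuH-7-P (SD over 8 spots of 1 array). S-Probe22, of similar brightness, had 95.4 ± 4.00 on HuH-7-M, against 93.2 ± 3.18 on HuH-7-P. On the BLANK-subtracted scale 5 of the 6 measured members lay inside that range of the controls, and miR-92a-2-5p (-0.52) lay just below it. The part of this shift between the arrays in the members' values was not tested.

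With the BLANK mean subtracted and neither offset nor scaling, the same 5 members were above 0, as were 50.5% of all measured miRNAs. All 6 lay outside the quartiles of a wide window of brightness, as many miRNAs of each window do by definition. Requiring both arrays in the window leaves out miRNAs with large differences, which narrows the quartiles. Among 676 measured miRNAs with spot medians between 70 and 130 on both arrays, the quartiles of the log2 difference were -0.18 and 0.18, and miR-25-3p (0.92), miR-92a-3p (0.57), miR-92b-3p (0.50) and miR-25-5p (0.33) lay above them. Of these, miR-25-3p lay at the dim end of the window on HuH-7-P, with a spot median of 71.2. Among 298 miRNAs between 130 and 500 the quartiles were -0.20 and 0.26, and miR-92a-2-5p (-0.52) lay below them. Among 90 miRNAs between 500 and 2000 the quartiles were -0.06 and 0.58, and miR-92b-5p (0.67) lay above them. The authors' deposited table, which carries no offset, gives miR-92a-3p 57.8 on HuH-7-M, against 38.2 on HuH-7-P, and gives miR-25-3p 18.2 on HuH-7-M, against 9.39 on HuH-7-P. For miR-92a-2-5p the authors' deposited table holds 97.0 on the HuH-7-M array and 136 on the HuH-7-P array.

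**Figure D2:**
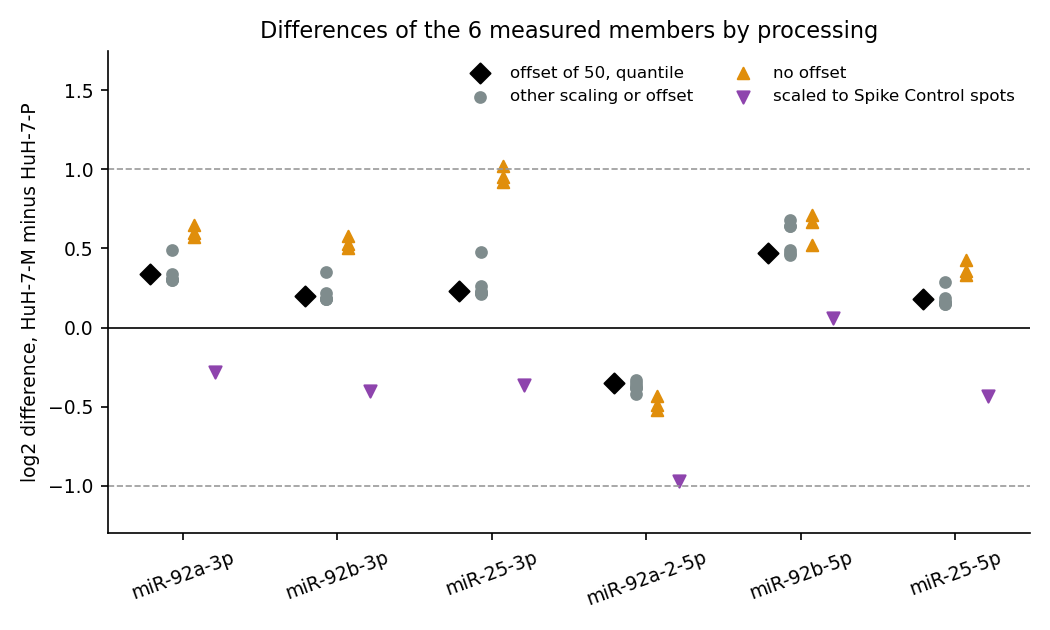
The log2 difference (HuH-7-M less HuH-7-P) of the 6 measured members (y axis) with the offset of 50 and quantile normalization (diamonds), under other scalings or offsets (circles), without an offset (upward triangles) and scaled to the Spike Control spots (downward triangles), with dashed lines at 2-fold. miR-92a-2-5p lies below 0 throughout, miR-92b-5p above 0 throughout, and the other 4 lie below 0 only on the Spike Control scale, where miR-92a-3p is at -0.28.

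Directions held under each background correction and scaling tried but 1. With the Spike Control spots as the scale, where the median over all measured probes was -0.58, miR-92a-3p (-0.28), miR-92b-3p (-0.40), miR-25-3p (-0.36) and miR-25-5p (-0.43) turned below 0. Relative to that median they were 0.30, 0.18, 0.22 and 0.15. The Spike Control scale shifts each array by a constant, so these equal the values without scaling and are no separate check. On the same scale miR-92b-5p stayed above 0 (0.06) and miR-92a-2-5p was -0.97. Without an offset and with quantile normalization, miR-25-3p reached 1.02, past 2-fold, as 3.89% of all measured miRNAs did upward. miR-363-5p and miR-32-5p exceeded the limit on HuH-7-M only. With the offset, their HuH-7-M values were 1.09-fold and 1.01-fold those of the dimmest HuH-7-P probe above its limit. These sizes take in no spread and are smaller than a log2 difference of 0.30, the control spread. They do not hold on the Spike Control scale either, so no direction is read for these 2 members.

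The strands of 1 hairpin were also compared with each other, as the log2 difference of the 5p arm minus that of the 3p arm. For miR-25 this was -0.05 with the offset and -0.59 with the BLANK mean subtracted and no scaling, and it was below 0 under all 11 settings (from -0.60 to -0.04). For the X-linked miR-92a hairpin, set against the miR-92a-3p probe that 2 loci share, it was -0.68 with the offset and between -1.09 and -0.64 over the settings. For miR-92b it was 0.27, and it ranged from -0.05 to 0.45 with no fixed sign. Settings that differ only by a constant shift of each array give the same value here, so the 11 settings are not separate checks. On the scale with the offset, control spots give a comparison of 2 such differences an SD of 0.42, which the X-linked miR-92a hairpin exceeded and the others did not. This SD covers spot noise only and was not estimated for the settings without an offset.

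The kinds of arm differ in base composition as well as in seed. G made up 31.8% to 54.5% of the opposite arms and 13.6% to 22.7% of the seed-sharing arms, without overlap, and the quartiles over 2253 array miRNAs matched to RefSeq were 18.2% and 37.5%. Across these 2253 miRNAs the share of G correlated with the log2 spot median at r = 0.603 and rho = 0.515 on HuH-7-M, against r = 0.594 and rho = 0.517 on HuH-7-P. The share of G and C together followed brightness more closely by rank (rho = 0.770 on HuH-7-M, against 0.760 on HuH-7-P), and by that measure the kinds of arm overlapped, with 50% to 72.7% in the opposite arms and 31.8% to 63.6% in the seed-sharing arms. The points of 1 array share its labelling and scan, so these correlations describe the arrays. Among the 234 miRNAs with 50% G or more, where miR-92b-5p falls, 97.9% exceeded both No Probe limits. Among the 246 with 40% to 50% G, which include miR-92a-2-5p and miR-25-5p, 72.0% did. Among the 472 with 30% to 40% G, which include miR-92a-1-5p and miR-363-5p, 22.5% did. miR-92a-1-5p was below the BLANK limit although 71.4% of that class were measured.

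Seed-sharing arms fell in the G-poor classes. Of the 625 miRNAs with 20% to 30% G, which include miR-92a-3p and miR-25-3p, 41.6% were measured and 9.12% exceeded both No Probe limits, as miR-92a-3p did. Of the 676 with less than 20% G, which include miR-92b-3p, miR-363-3p and miR-32-5p, 49.1% were measured and 17.5% exceeded both No Probe limits. The 3 opposite arms with 40% G or more were those above both No Probe limits, while miR-92a-1-5p and miR-363-5p lay at or near the BLANK level. The part of base composition in these signals was not tested. With the offset, the share of G correlated with the culture difference at r = 0.0738 and rho = 0.0896 over 1402 measured miRNAs. For the share of G and C together these were r = 0.135 and rho = 0.171.

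**Figure D3:**
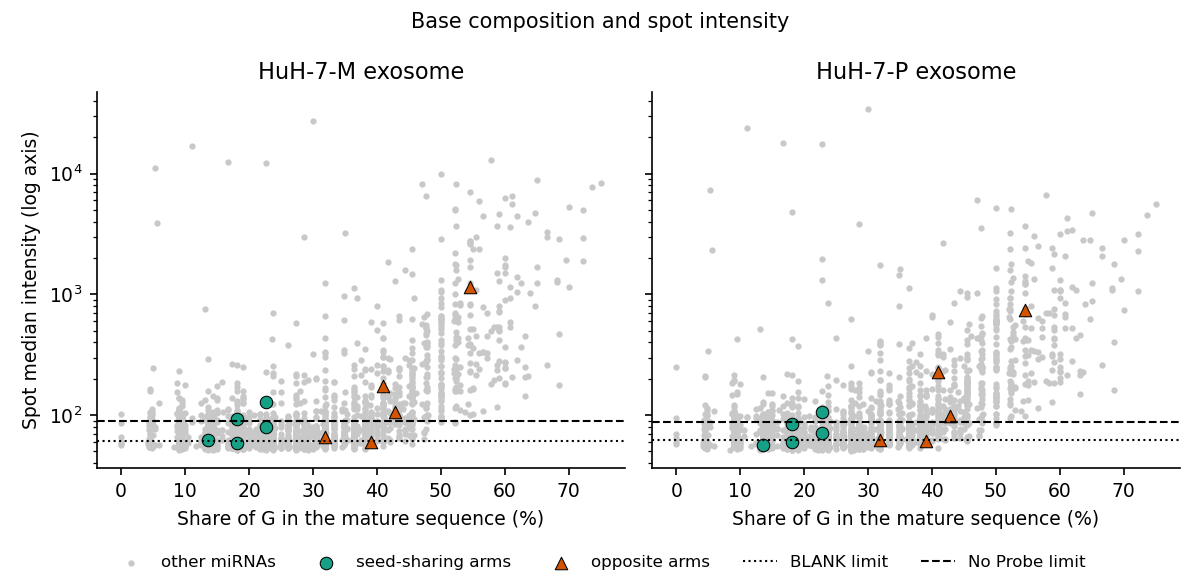
Spot median intensity (log axis) against the share of G in the mature sequence for 2253 miRNAs on the HuH-7-M array (left) and the HuH-7-P array (right), with seed-sharing arms as circles, opposite arms as triangles and the BLANK (dotted) and No Probe (dashed) limits. Intensity rises with G above about 40%, all circles lie at 22.7% G or less and all triangles at 31.8% or more.

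The cluster partners of the guides lay on both sides of 0, the lowest being guides of the miR-17 family. Of 21 arms encoded beside miR-92a, miR-363 and miR-25, 10 were measured (47.6%, against 62.1% of all probes). Both No Probe limits were exceeded by 0 of them, against 30.8% of all probes. On the scale with the offset 0 were at least 2-fold apart, as only 2.13% of all measured miRNAs were. Their median was -0.06, with 4 above 0 and 6 below. On BLANK-subtracted signals, without offset or scaling, the median was -0.30. There 2 of the 10 fell short of HuH-7-P by 2-fold or more, miR-20a-5p (-1.17) and miR-17-5p (-1.07), as 4.46% of all measured miRNAs did. On that scale miR-106a-5p was at -0.93 and miR-92a-3p at 0.57. With the offset the lowest were miR-17-5p (-0.36), which targets E2F1, miR-106a-5p (-0.30) and miR-20a-5p (-0.29). miR-17-5p had a signal of 18.0 on HuH-7-M, against 37.9 on HuH-7-P, in the same transcript unit as one copy of miR-92a. miR-106a-5p had 17.6 on the HuH-7-M array and 33.6 on the HuH-7-P array, in the X-linked cluster with the other copy. miR-20a-5p had 11.6 on HuH-7-M, against 26.1 on HuH-7-P. All 3 were dimmer on HuH-7-M. The differences of miR-17-5p and miR-106a-5p with the offset reached the spread of 0.30, and that of miR-20a-5p did not.

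The partners of miR-25 were near 0. miR-106b-5p had a signal of 6.86 on HuH-7-M, against 5.90 on HuH-7-P (0.04, the highest of the partners), miR-106b-3p was at 0.01, and miR-93-5p had 22.4 on the HuH-7-M array and 23.8 on the HuH-7-P array. The next highest partners were miR-18b-3p and miR-19b-3p, both at 0.02. miR-17-5p, miR-20a-5p, miR-20b-5p, miR-106a-5p, miR-106b-5p and miR-93-5p carry 1 seed, AAAGUGC. With the offset, 5 of these 6 were below 0, as were 717 of all 1593 measured miRNAs, and miR-93-5p was nearly at 0 (-0.0076). miR-106a-5p is the same as miR-17-5p at 22 of 23 bases, and miR-20a-5p and miR-20b-5p at 21 of 23, and how far the probes of these 4 separate them was not tested. On the Spike Control scale the partners' median was -0.66.

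**Figure D4:**
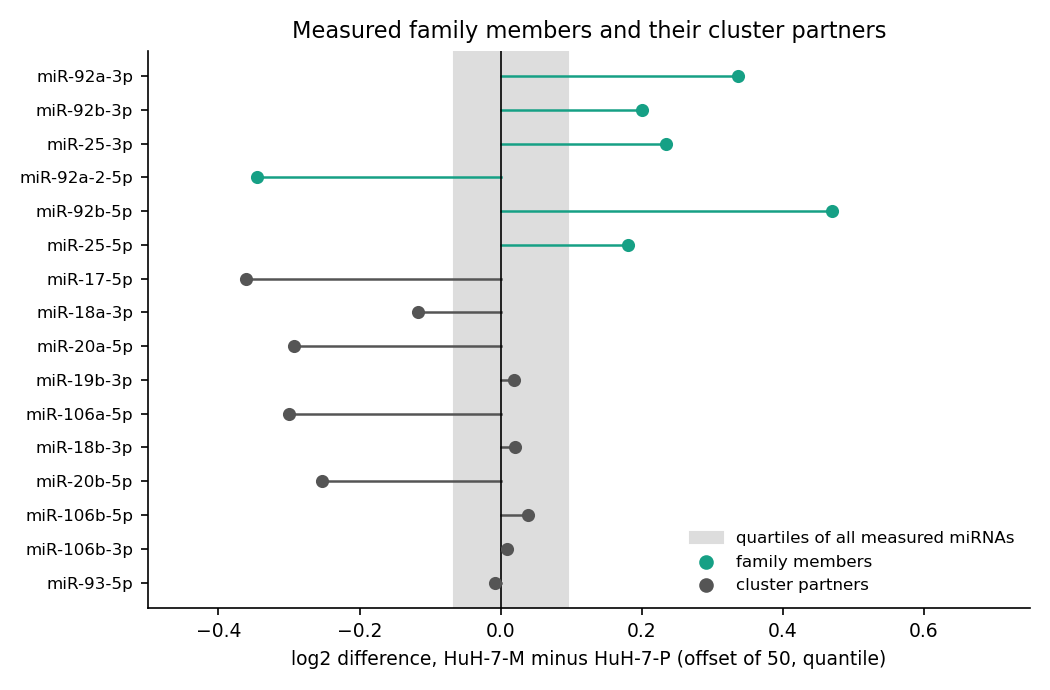
The log2 difference (HuH-7-M less HuH-7-P) of the 6 measured family members (green) and the 10 measured cluster partners (grey), with the offset of 50 and quantile normalization. The grey band marks the quartiles of all measured miRNAs (-0.07 and 0.10), outside which many miRNAs lie by definition. All 6 members lie outside it, 5 to the right and miR-92a-2-5p to the left. On this scale the quartiles widen with brightness. They were -0.05 and 0.08 for spot medians of 70 to 130 on both arrays. For 130 to 500 they were -0.12 and 0.20, and for 500 to 2000, where miR-92b-5p lies, -0.19 and 0.28.

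As a check of the labelled cell type, all 5 hepatocyte miRNAs were measured, against 62.1% of all probes. Of these, 2 exceeded both No Probe limits, against 30.8% of all probes. miR-122-5p, the defining one, had a spot median, with the BLANK mean not subtracted, of 126 on HuH-7-M, against 99.7 on HuH-7-P. Its log2 difference was 0.41, the highest of the 5. miR-885-5p was at 0.14, miR-215-5p at 0.06, miR-192-5p at -0.05 and miR-194-5p at -0.06, and the median was 0.06. The signals of the 5 summed to 149 on HuH-7-M, against 119 on HuH-7-P. All 4 blood miRNAs were measured too, summing to 51.5 on the HuH-7-M array and 57.6 on the HuH-7-P array, and all 4 lay below 0 with a median of -0.02. Of 6 miRNAs of endothelium, stroma, muscle and neurons 3 were measured. The endothelial miR-126-3p and the stromal miR-145-5p were below the BLANK limit on both arrays, and the stromal miR-143-3p was above it on HuH-7-P only (a signal of 2.31 on HuH-7-M, against 5.31 on HuH-7-P). The neuronal miR-124-3p exceeded both No Probe limits, with a signal of 47.4 on the HuH-7-M array and 46.5 on the HuH-7-P array. The sums of these 6 were 78.1 on HuH-7-M, against 177 on HuH-7-P, mostly through the muscle miRNA miR-206 (a signal of 17.3 on HuH-7-M, against 109 on HuH-7-P). As spot medians, miR-124-3p had 106 on each array, and miR-206 had 76.0 on HuH-7-M, against 168 on HuH-7-P. By that measure miR-122-5p was brighter than both on HuH-7-M and dimmer than both on HuH-7-P. Such brightness of different probes was not read as relative abundance. The part of other cell types in the members' values was not tested.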

How the data were processed

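RNA from the exosomes of 1 HuH-7-M and 1 HuH-7-P culture was put on 1 Cy5 3D-Gene array per culture, per the labels' protocols. The deposited scanner output gives, per the file headers, spot median intensities at 635 nm beside a separate background column, and a least-squares fit between 3 gain settings. The intensity named as background followed the spot median (r = 0.992 on each array) and was not used. The authors also deposited a table of scaled intensity values by a method the labels do not state. The members' deposited values were rebuilt as the signal over the median signal of the probes above the BLANK limit, times 25. For the measured members both values were equal to a tolerance of 1e-06. miR-32-5p and miR-363-5p hold a value on HuH-7-M only, which was equal too. miR-363-3p and miR-92a-1-5p are empty on both arrays, so their rows hold no value to compare. Over the whole table only 663 of 1663 filled HuH-7-M values and 654 of 1663 filled HuH-7-P values equal the rebuilt ones under the same identifier. Counts and medians with the authors' scaling therefore use the rebuilt values, under the names of the scanner output.

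Limits were the mean plus 2 SD of the BLANK or No Probe spots without their top and bottom 5%, and the BLANK mean was taken in the same way. Differences used normexp on the BLANK spots (nec, limma 3.58.1, R 4.3.3), an offset of 50, log2 and quantile normalization. Tested on simulated data, this gave the right sign for 2-fold and 4-fold changes and read 2-fold changes as smaller than they were. The simulated arrays had as many rises as falls, less spot noise than the pooled controls and no shift between arrays. Right signs there were thus nearly given by the setting. Only probes brighter on HuH-7-P than miR-92a-3p, miR-92b-3p, miR-25-3p and miR-25-5p were changed, so the simulation does not cover these dim members. A size of 2-fold was the threshold, and a group of 1 array allows no p-value, and the number of arrays limits the precision. Named are all members, the measured cluster partners with the 3 highest and 3 lowest differences, relatives and markers. miR-20b-5p, miR-93-5p and miR-106b-3p were named after their values were seen. Members and lists were chosen with earlier results of these data known, and the comparisons with base composition, control spots and windows of brightness were added after seeing the data. Sequences are from RefSeq, GRCh38.p14. Alternatives changed the background step, the offset, the scaling, the limits and the source of the values.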

Additional observations from a re-analysis of the deposited data

How the results depend on the processing

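No paired analysis was possible because each group has 1 array. Of 60 member differences recomputed under 10 alternatives, 48 moved by less than 0.30, the control spread on the scale with the offset, with the same sign, 8 moved by more and 4 changed sign, all 4 on the Spike Control scale (miR-92a-3p -0.28, miR-92b-3p -0.40, miR-25-3p -0.36, miR-25-5p -0.43). That scale also turned the medians of the seed-sharing arms (-0.36) and the opposite arms (-0.43) and moved that of the partners to -0.66. It gave 2 miRNAs at least 2-fold higher and 73 lower over all measured. The Spike Control spots were brighter on HuH-7-M and the cause was not tested. Without an offset, fold differences of dim probes are larger by construction. The seed-sharing median was then 0.65 with quantile normalization, 0.57 without scaling and 0.60 with the authors' scaling rebuilt from the scanner output. Over all measured miRNAs the same 3 settings gave 62 higher and 64 lower, 53 and 71, and 63 and 67. Of the members 1 was then at least 2-fold apart, miR-25-3p with quantile normalization. The count of higher miRNAs was 16 with an offset of 16, 19 without scaling, 20 after scaling to the measured median and 23 after scaling to the 75th percentile. Members above background numbered 6 with a limit of 3 SD or with all BLANK spots, and 4 with the No Probe limit, under which no partner was left for a median. Signals of miR-25-3p and of the members near the BLANK limit are too low over background for their sizes to be read closely.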
